A study of Mus musculus with 7 samples.

Results

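Binding of Tip60, p400 and Hdac6 was examined at the promoters of genes for cyclins, cyclin-dependent kinases, Cdc proteins, and the Mcm and Orc proteins that license DNA replication. Members were all rows whose gene symbol starts with Ccna, Ccnb, Ccnd or Ccne, or with Cdk, Cdc, Mcm or Orc followed by a digit, without Cdc42 and its partners. The rule uses names and no measured value. It found 88 of 36733 rows, each centred on a transcription start site (TSS), and these rows belong to 68 genes, 20 of which have 2 rows. Some symbols that the rule takes have other roles, such as the neuronal kinase Cdk5 and its regulators, or the splicing factor Cdc5l.

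All libraries came from E14 mouse embryonic stem cells (ESCs) grown without feeder cells, 1 library per condition. Flag ChIP was performed on Tip60-H3F ESCs with GFP KD, the control knockdown, or Hdac6 KD, on Hdac6-H3F ESCs with GFP KD or Tip60 KD, and on wild type ESCs without a tag. H3F is a histidine and Flag epitope tag placed at the endogenous gene, so Tip60 and Hdac6 are measured through one antibody and the untagged cells give its background. ChIP with an antibody against p400 was performed on untagged ESCs upon GFP KD and Hdac6 KD, and no library gives the background of that antibody. Knockdown cells were collected 72 hr after infection with lentivirus. The labels conflict for 1 library: its title names Tip60 KD and its genotype names Hdac6 KD. It is called here the library titled Tip60 KD, and no direction found with it can be tied to either knockdown with certainty.

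Tip60 (Kat5) is a histone acetyltransferase and p400 (Ep400) a nucleosome remodelling ATPase, and both are subunits of the Tip60-p400 complex. Hdac6 is a deacetylase best known for acting on tubulin. The comparisons ask whether binding of the complex changes when Hdac6 is depleted, and the reverse. D and E cyclins with Cdk4, Cdk6 and Cdk2 drive cells through G1 and into S phase, while A and B cyclins with Cdk2 and Cdk1 act in S phase and mitosis. Cdc25 phosphatases activate these kinases, and the anaphase promoting complex ends mitosis by marking cyclins for destruction. The origin recognition complex (Orc1 to Orc6) and Cdc6 load the Mcm2 to Mcm7 helicase onto DNA in G1, which licenses each origin for a single round of replication, and Cdc7 and Cdc45 help to fire it. In many cell types these genes are switched on by E2F factors before S phase, or through CCAAT boxes and CHR elements before mitosis. ESCs have a short G1 phase and express many of them at high levels.

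The promoters that show these sequence classes are given first, because later results return to them. Each runs 5′ to 3′ from 250 bases before to 50 bases after the TSS of the file, read from the mm9 genome (NCBIM37). Capitals mark matches, on either strand, to the E2F site (TTTCCCGC, TTTCGCGC, TTTGCCGC or TTTGGCGC), the CCAAT box (CCAAT), the CHR element (TTTGAA) and the Sp1 site (GGGCGG). Ccnb1, Ccnb2 and Cdk1 encode the subunits of the mitotic cyclin B kinase, and Ccnb2 had the largest p400 difference among the members called.
Ccnb1: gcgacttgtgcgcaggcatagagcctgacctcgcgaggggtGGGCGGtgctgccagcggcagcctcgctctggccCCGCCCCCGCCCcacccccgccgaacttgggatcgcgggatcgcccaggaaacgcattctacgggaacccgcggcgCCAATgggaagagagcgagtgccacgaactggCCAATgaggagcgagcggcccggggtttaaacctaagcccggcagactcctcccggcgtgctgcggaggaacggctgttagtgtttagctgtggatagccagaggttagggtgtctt
Ccnb2: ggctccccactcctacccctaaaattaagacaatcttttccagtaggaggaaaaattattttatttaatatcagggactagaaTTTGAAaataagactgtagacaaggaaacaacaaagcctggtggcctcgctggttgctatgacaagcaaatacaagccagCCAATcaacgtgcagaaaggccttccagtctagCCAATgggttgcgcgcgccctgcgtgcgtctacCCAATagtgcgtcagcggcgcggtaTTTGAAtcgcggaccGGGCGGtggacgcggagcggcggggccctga
Cdk1: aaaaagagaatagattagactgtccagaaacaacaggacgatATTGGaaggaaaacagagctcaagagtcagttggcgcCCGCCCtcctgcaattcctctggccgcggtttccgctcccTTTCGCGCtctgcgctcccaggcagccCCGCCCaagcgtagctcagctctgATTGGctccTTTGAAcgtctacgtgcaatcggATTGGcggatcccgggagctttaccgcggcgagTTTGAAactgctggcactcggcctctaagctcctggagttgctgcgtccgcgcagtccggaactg
Ccnb1 lies at chr13:101556392-101556691, minus strand, Ccnb2 at chr9:70269312-70269611, minus strand, and Cdk1 at chr10:68815611-68815910, minus strand. The next set holds genes of the G1 to S transition: Ccne1, for the cyclin that partners Cdk2, Mcm5, for a helicase subunit, Orc1l, the older symbol of Orc1, and Cdc6.
Ccne1: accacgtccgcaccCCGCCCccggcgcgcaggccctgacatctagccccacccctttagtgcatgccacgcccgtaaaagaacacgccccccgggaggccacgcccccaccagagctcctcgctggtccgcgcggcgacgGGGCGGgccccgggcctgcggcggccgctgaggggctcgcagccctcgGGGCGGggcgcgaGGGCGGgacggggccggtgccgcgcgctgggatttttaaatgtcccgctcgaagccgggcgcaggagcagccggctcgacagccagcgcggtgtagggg
Mcm5: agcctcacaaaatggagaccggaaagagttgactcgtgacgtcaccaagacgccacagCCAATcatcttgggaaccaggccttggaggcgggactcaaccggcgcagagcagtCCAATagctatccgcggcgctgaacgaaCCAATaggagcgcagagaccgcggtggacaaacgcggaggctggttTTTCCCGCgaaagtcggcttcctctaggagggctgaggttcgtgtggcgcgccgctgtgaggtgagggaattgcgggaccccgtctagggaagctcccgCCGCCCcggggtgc
Orc1l: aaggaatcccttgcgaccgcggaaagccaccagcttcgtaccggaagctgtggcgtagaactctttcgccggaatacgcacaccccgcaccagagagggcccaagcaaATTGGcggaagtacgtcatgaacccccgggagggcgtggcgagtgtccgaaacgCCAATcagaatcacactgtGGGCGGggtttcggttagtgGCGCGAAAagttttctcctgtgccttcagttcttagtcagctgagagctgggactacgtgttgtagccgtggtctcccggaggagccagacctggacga
Cdc6: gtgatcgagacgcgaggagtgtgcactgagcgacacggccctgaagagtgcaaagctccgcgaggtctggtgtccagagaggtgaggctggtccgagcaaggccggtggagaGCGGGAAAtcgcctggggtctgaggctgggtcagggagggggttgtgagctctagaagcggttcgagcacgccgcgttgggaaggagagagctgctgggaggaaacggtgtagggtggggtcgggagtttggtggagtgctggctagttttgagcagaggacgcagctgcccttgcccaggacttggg
Ccne1 lies at chr7:38892460-38892759, minus strand, Mcm5 at chr8:77633273-77633572, plus strand, Orc1l at chr4:108251831-108252130, plus strand, and Cdc6 at chr11:98769215-98769514, plus strand. The TSS of Ccnb1, Ccnb2, Mcm5 and Cdc6 is an annotated transcript start of that build, while those of Cdk1, Ccne1 and Orc1l are not.

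These promoters differ in the motifs they hold. Ccnb2 has 3 CCAAT boxes on the same strand at −87, −54 and −21, and CHR matches at −167 and 5, counted from 1 at the TSS. Cdk1 combines an E2F site, 3 CCAAT boxes and 2 CHR matches. Mcm5 has 3 CCAAT boxes and an E2F site at −63, and Ccne1 has 4 Sp1 sites and none of the other motifs. Over 1 promoter per gene, an E2F site was found in 13 of 68 members (19.1%) and in 531 of 17689 genes (3.0%). It was found in 9 of the 16 licensing and firing genes, and these include each of Mcm2, Mcm3, Mcm4, Mcm5, Mcm6 and Mcm7. It was also found in 2 of the 4 cell cycle kinases, while none of the 10 cyclin promoters and none of the 7 promoters of transcription kinases held it. The Sp1 site was found in 50 members (73.5%) against 49.2% of all genes, the CCAAT box in 32 (47.1%) against 37.1%, and the CHR element in 10 (14.7%) against 14.4%. A match to these letters is a description and does not show that a factor binds. Only exact matches were counted, so the lack of one does not show that a site is absent.

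**Figure D1:**
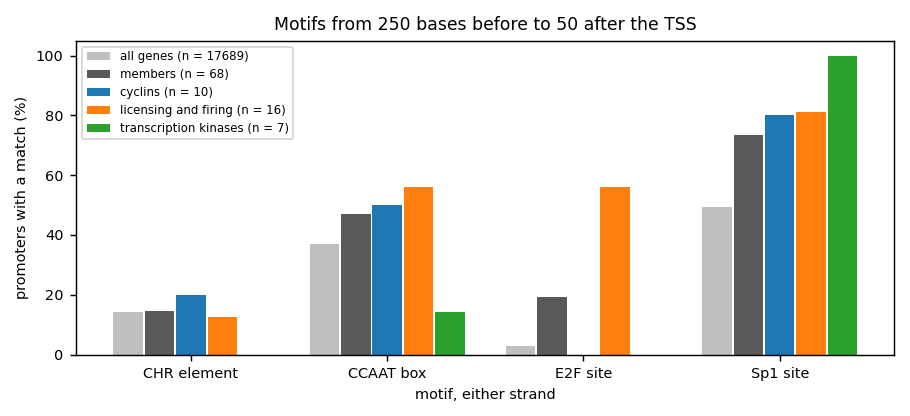
Percent of promoters (y axis) with at least 1 match to each motif (x axis) on either strand, for all genes, the 68 members and 3 of their roles. The E2F site was found in 56.2% of licensing and firing promoters and in 3.0% of all promoters, while the CHR element was found in 14.7% of members and 14.4% of all.

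Depth set the precision of every value. The values of the files are whole multiples of the value of 1 read, which gives normalizing totals of 21339342 reads for the Tip60 control and 19161052 upon Hdac6 KD. The totals were 11586224 for Hdac6 upon GFP KD, 9226709 for the library titled Tip60 KD, 23146809 for the untagged control, and 25308255 and 31375600 for p400 in the control and upon Hdac6 KD. Within 500 bp of the TSS a member row held a median of 16.5, 11.5, 15, 14, 13.5, 31 and 20 reads in the same order, against 12, 9, 10, 8, 12, 21 and 19 over all rows. Reads were compared between libraries by an exact conditional binomial test, two-sided, adjusted by the Benjamini-Hochberg method over all rows of a file, and a row was called at an adjusted p under 0.05. With 1 library per condition this test compares libraries, not conditions, and it and the 95% exact intervals cover counting error only. A difference between cultures cannot be told apart from a knockdown. Changes are percent differences of reads scaled to the normalizing totals.

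Upon GFP KD, p400 was high at most of these promoters. Of the 68 genes, 40 lay in the top 25% of genes by p400 signal, 20 in the top 10%, and 12 below the median. The median signal was 0.365 ppm (coverage scaled to the normalizing reads) for the members and 0.256 ppm for all genes, a ratio of 1.43. The median of the Tip60 signal was 0.231 ppm against 0.177 ppm, that of Hdac6 0.189 against 0.154 ppm, and untagged ESCs gave 0.172 against 0.154 ppm. Member promoters were also richer in GC, with a median of 58.4% within 500 bp of the TSS, against 55.3% for all rows with a RefSeq identifier. Their median ratio of observed to expected CpG was 0.760, against 0.548. The part of base composition in these levels was not tested.

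In the averaged profiles, p400 signal of the members peaked at 20 bp with 0.414 ppm, against 0.166 ppm in the flanks 1500 to 2000 bp away. The Tip60 profile rose to 0.249 ppm upstream (−560 bp) and 0.302 ppm downstream (300 bp) around a minimum of 0.185 ppm at −120 bp. Over all genes both maxima were lower, with 0.196 ppm upstream (−420 bp) and 0.205 ppm downstream (260 bp). Hdac6 signal of the members peaked at 140 bp with 0.252 ppm. Within 1000 bp of the TSS, the untagged profile was highest at the edge of that range, −1000 bp, with 0.228 ppm. It had a lower rise downstream of the TSS. Farther upstream the untagged signal was higher still, with 0.236 ppm at −1200 bp without the running mean over 100 bp. Hdac6 reads covered 148 bp and the others 299 bp, so levels in ppm were not compared between Hdac6 and the other proteins.

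**Figure D2:**
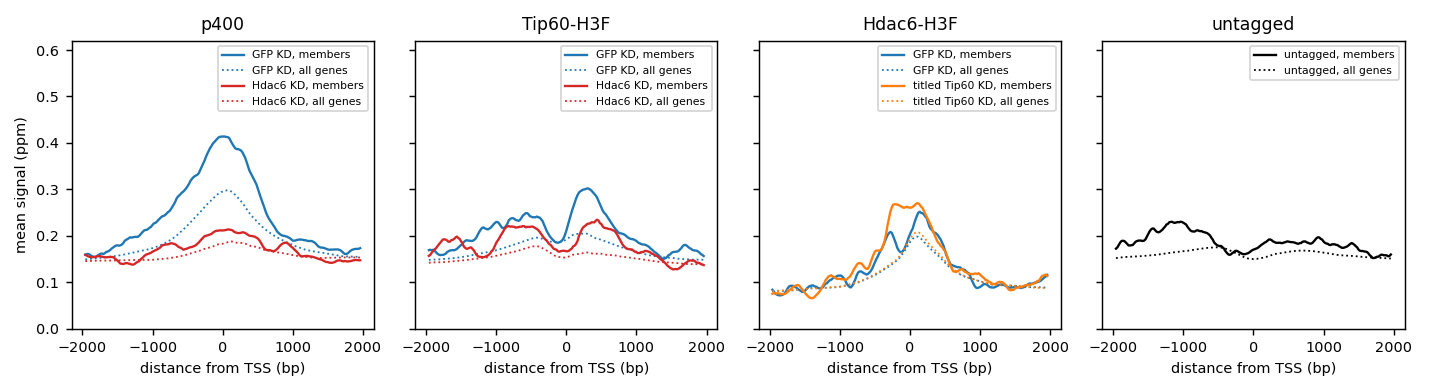
Mean signal in ppm (y axis, running mean over 100 bp) by distance from the TSS in bp (x axis), for the 68 member genes (solid) and all 17689 genes (dotted) in the 7 libraries. The p400 profile of the members falls from a maximum of 0.414 ppm upon GFP KD to 0.214 ppm upon Hdac6 KD, while that of all genes falls from 0.298 to 0.188 ppm.

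Of the 3 knockdown comparisons, that of p400 upon Hdac6 KD had the largest pooled difference. Of 88 member rows, 29 (33.0%) were called with fewer p400 reads upon Hdac6 KD and 0 with more. The shares were 13.1% and 0.3% of the 22704 rows tested. By 1 row per gene, 27 of 68 members (39.7%) were called with fewer, against 14.7% of all genes. Summed over the 68 genes, reads went from 2162 to 1461, a change of −45.5% (95% interval −49.0 to −41.7%), and 60 genes had the lower value upon Hdac6 KD. Over all genes the change was −33.4%, and 13496 of 17689 genes had the lower value upon Hdac6 KD. The members started from more p400 signal than other genes, and with the flank signal of the same rows subtracted the change was −75.2% for the members and −75.3% for all genes. The larger share of calls among members therefore stands beside a larger starting number of reads, and the part of that number was not tested.

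Among the cyclins, 4 of 10 were called with fewer p400 reads, and 9 had the lower scaled value upon Hdac6 KD. At Ccnb2, for mitotic cyclin B2, 49 p400 reads upon GFP KD stood against 11 with Hdac6 knocked down, a change of −81.9% (95% interval −91.5 to −64.7%; exact test, adjusted p = 1.78e-06). Its Tip60 reads were 30 and 15 in the same 2 conditions, and its untagged reads 13. Its Hdac6 reads were 12 upon GFP KD and 7 in the library titled Tip60 KD. Ccnb2 had the lowest p400 ratio of all 68 genes. Ccnb1, for the main mitotic B cyclin, had 43 and 18 p400 reads (−66.2%, −81.7 to −40.2%; exact adjusted p = 0.00189). Ccna2, the A cyclin of dividing cells, had 43 and 25 (−53.1%; exact adjusted p = 0.024), and Ccne2 had 32 and 17 (−57.1%; exact adjusted p = 0.0345). The other E cyclin, Ccne1, had 19 and 12 p400 reads, which was not called (exact adjusted p = 0.225). The D cyclins link growth signals to Cdk4 and Cdk6, and none was called: Ccnd1 had 32 and 24 reads, Ccnd2 21 and 18, and Ccnd3 29 and 30. Ccna1 had 24 and 12 reads (exact adjusted p = 0.068). Ccnb3, whose promoter had the lowest GC content among the cyclins, had 6 and 8 p400 reads and no more than 6 reads in any Flag library.

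Kinases of the cell cycle were less clear. Cdk1 had 37 p400 reads in the control and 26 upon Hdac6 KD (−43.3%, −67.0 to −3.84%; exact test, adjusted p = 0.131). Cdk2 had 30 and 28, Cdk4 40 and 46, and Cdk6 37 and 30. None of these 4 was called, and all 4 scaled values were lower upon Hdac6 KD, with a pooled change of −27.2% (−43.0 to −7.04%). Among the Cdc25 phosphatases, Cdc25a had 17 and 30 p400 reads, Cdc25b 24 and 27, and Cdc25c 34 and 22, and none was called. Of the anaphase promoting complex and its activator Cdc20, only Cdc20 was called, with 47 and 27 reads (−53.7%, exact adjusted p = 0.0179). The subunits Cdc16, Cdc23 and Cdc27 had 9 and 19, 31 and 28, and 37 and 28 reads. The TSS of Myl4 lies 43 bp from that of Cdc27 and the TSS of Spef1 203 bp from that of Cdc25b, so reads of each pair cannot be told apart.

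Licensing and firing genes had 7 of 16 members called, all with fewer p400 reads, and a pooled change of −46.7% (−53.6 to −38.9%). Mcm3 had 48 p400 reads in the control and 16 upon Hdac6 KD (−73.1%, −85.7 to −51.8%; exact test, adjusted p = 0.000108). Its Tip60 reads were 14 and 16 in the same 2 conditions, and its untagged reads 10. Its Hdac6 reads were 15 upon GFP KD and 10 in the library titled Tip60 KD. The Tip60 reads at Mcm3 did not differ detectably at this depth. Of the other helicase subunits, Mcm2 had 33 and 17 (−58.4%), Mcm4 47 and 28 (−51.9%) and Mcm7 48 and 27 (−54.6%), with adjusted p from 0.0142 to 0.0265. Mcm5 and Mcm6 had 33 and 20 (exact adjusted p = 0.074) and 27 and 17 reads (exact adjusted p = 0.137). All 6 subunits had the lower scaled value upon Hdac6 KD, as had 60 of the 68 members and 13496 of all 17689 genes. Each of the 6 promoters held an E2F site. The promoters of Orc1l and Cdc25a held it too and had the higher p400 value upon Hdac6 KD. Those of Orc4l, Orc5l and Orc6l held none and were called with fewer reads. Whether the p400 change goes with the E2F site was not tested.

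The origin recognition complex showed a range. Orc5l had 35 and 13 p400 reads (−70.0%; exact test, adjusted p = 0.00328), Orc6l 42 and 19 (−63.5%; exact adjusted p = 0.00423) and Orc4l 28 and 13 (−62.5%; exact adjusted p = 0.0265). Orc1l had 23 and 34, Orc2l 38 and 24 (exact adjusted p = 0.0649) and Orc3l 30 and 25, and none of these was called. The loader Cdc6 had 21 and 17, the kinase Cdc7, which fires origins, 27 and 24, and Mcm10, an initiation factor, 15 and 31. Mcm10 and Orc1l were among the 5 genes with the highest ratios, along with Cdc16 (70.3%), Cdc25a (42.3%) and Cdk5r2 (32.9%), and none of them was called as higher. Cdc45 had 38 and 27 reads at the TSS shown (exact adjusted p = 0.138), and its other row, which overlaps the first, was called with 39 and 21. Other genes start close to Orc1l (Prpf38a at 149 bp), Orc3l (Rars2 at 34 bp), Orc6l (Vps35 at 294 bp), Mcm7 (Ap4m1 at 159 bp) and Cdc45 (Ufd1l at 617 bp).

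Kinases that act on RNA polymerase II had 4 of 7 members called, with a pooled change of −52.6% (−62.1 to −40.9%). Cdk12, which phosphorylates the polymerase during elongation, had 41 and 17 p400 reads (−66.6%; exact test, adjusted p = 0.00295). Its close relative Cdk13 had 28 and 11 (−68.3%; exact adjusted p = 0.0139). Cdk9, the kinase of P-TEFb, had 24 and 10 (−66.4%; exact adjusted p = 0.0287), and Cdk7, the kinase that activates other Cdks and is part of TFIIH, had 41 and 22 (−56.7%; exact adjusted p = 0.0174). The Mediator kinases Cdk8 and Cdk19 had 17 and 23, and 31 and 17 reads, and Cdk11b had 41 and 31. These last 3 were not called.

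The other members held 24 genes, of which 11 were called. Cdk2ap2 had 46 and 13 p400 reads (−77.2%; exact test, adjusted p = 3.95e-05), after Ccnb2 the lowest ratio of all. Cdc73, a subunit of the Paf1 elongation complex, had 28 and 11 (−68.3%; exact adjusted p = 0.0139). The others were Cdc123, Cdc34, Cdc37, Cdc5l, Ccndbp1, Cdk5rap1, Cdk5rap3, Mcm3ap and Mcm8, with changes from −49.4 to −62.2%. Cdc34 is a ubiquitin-conjugating enzyme and Cdc37 a chaperone of kinases. Cdc123 starts 74 bp from Nudt5, Mcm8 281 bp from Trmt6 and Mcm3ap 143 bp from A130042E20Rik.

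**Figure D3:**
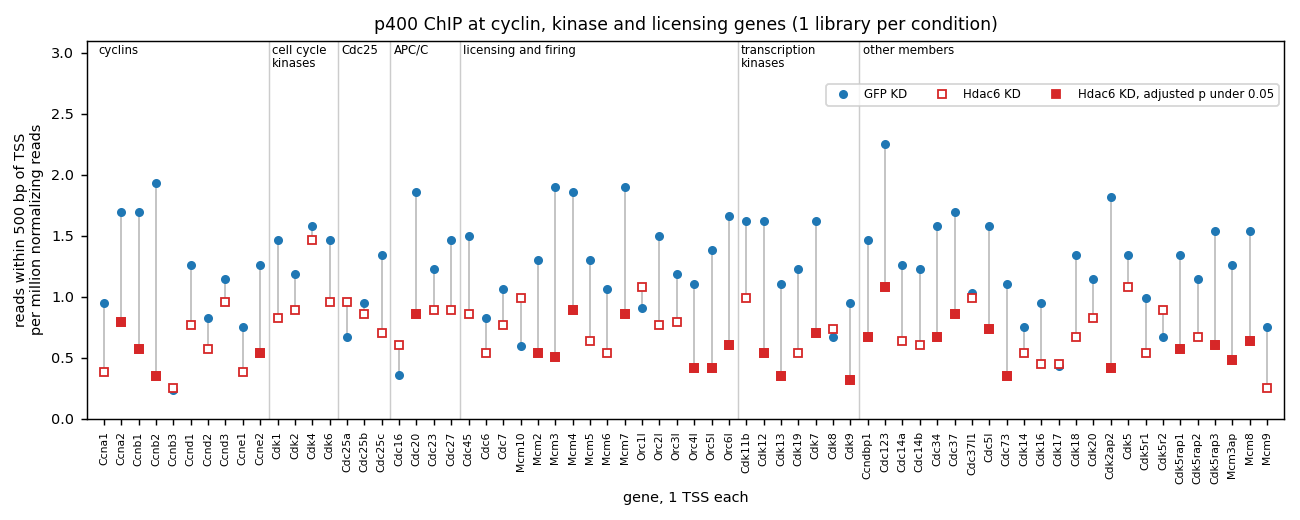
p400 reads within 500 bp of the TSS, scaled to the normalizing reads of the library (y axis, in ppm) for the 68 genes grouped by role (x axis), upon GFP KD (circles) and Hdac6 KD (squares, filled where the adjusted p was under 0.05), 1 library each. The square lies below the circle in 60 of 68 genes, and all 27 filled squares are below.

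Tip60 reads were compared between the same knockdowns. No member row was called in either direction, against 0.422% of all 36733 rows with fewer and 0.0517% with more Tip60 reads, and 13 of 88 rows (14.8%) had an unadjusted exact p under 0.05, against 13.0% of all rows. Summed over 68 genes the reads went from 1211 to 881, a change of −19.0% (95% interval −25.8 to −11.6%), and the change over all genes was −16.4%. The lower value was upon Hdac6 KD in 46 of the 68 genes, against 11063 of all 17689 genes. Downstream of the TSS (−100 to 300 bp) the members changed by −26.7% (−36.3 to −15.8%) and upstream (−600 to −200 bp) by −10.1% (−21.8 to 3.16%), against −20.4% and −10.2% over all genes. The intervals of the members overlap. Among single genes, Cdk12 had 33 and 12 Tip60 reads (−59.5%, −81.0 to −19.5%; exact test, adjusted p = 0.179) and Mcm7 had 42 and 19 (−49.6%; exact adjusted p = 0.233). In the other direction, Cdk1 had 21 and 37 (96.2%, 11.9 to 253%; exact adjusted p = 0.230), while its p400 reads were lower upon Hdac6 KD. Cdk14 had 6 and 0 Tip60 reads, which allows up to 3 reads in the knockdown library.

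GC content moved with the Tip60 change. In flank windows, 1500 to 2000 bp from the TSS and at least 1000 bp from any other, the ratio of Tip60 signal upon Hdac6 KD to GFP KD was 1.07 between 35 and 37.5% GC and 0.797 between 57.5 and 60%. In 3 classes of GC content, set after the data were seen, the pooled member change was −8.82% (−18.5 to 1.92%) in the 38 genes under 60% GC, −30.6% in the 18 genes from 60 to 65%, and −38.3% (−52.7 to −20.1%) in the 12 genes at 65% or more. Over all genes these values were −11.2%, −21.5% and −31.0%. With each knockdown value divided by the flank ratio of its GC content, or of the nearest GC content with at least 100 flank windows, the change was 1.44% (−6.60 to 10.1%) for the members and 2.55% for all genes. The p400 change of the members was −44.8%, −44.9% and −48.7% in the same 3 classes, with intervals that overlap. Over all genes it was −26.3%, −42.3% and −44.7%, larger at higher GC content. The p400 change was −43.8% (−47.4 to −39.9%) for the members after the same correction and −30.9% for all genes.

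**Figure D4:**
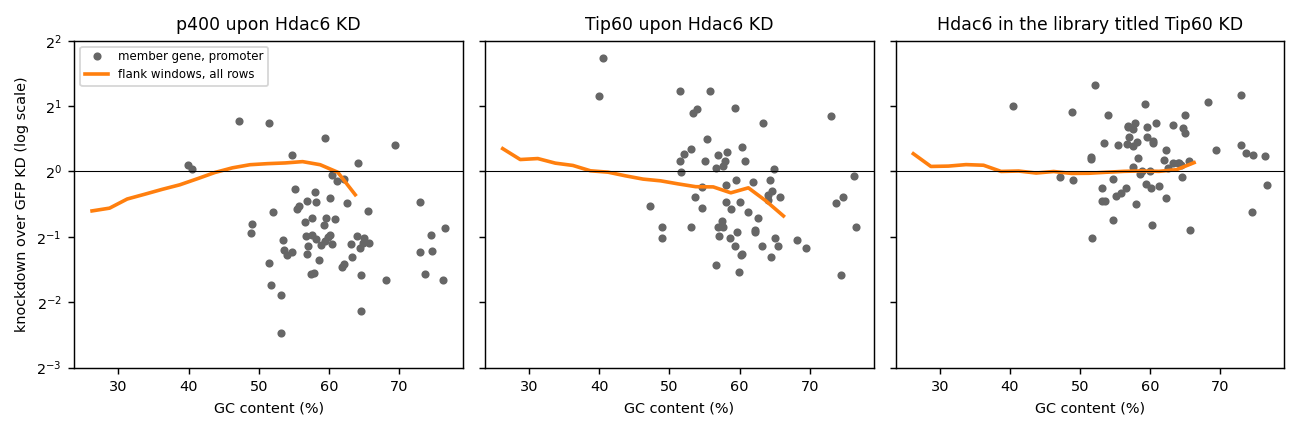
Ratio of knockdown to GFP KD reads (y axis, log scale) by GC content in percent (x axis), for p400, Tip60 and Hdac6. Points are the 68 member promoters (a gene without knockdown reads has no point) and the line gives the ratio in flank windows of all rows. In the p400 comparison most points lie below the line, and in the Tip60 comparison the points scatter around a line that falls from 1.07 at 35 to 37.5% GC to 0.797 at 57.5 to 60%.

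Which promoters carried Tip60 above the antibody background was asked by comparison with untagged ESCs. Only 2 of 88 rows (2.27%) were called with more Tip60 than untagged reads, against 1.34% of all rows, and 0 with fewer, against 0.117%. By scaled value alone, Tip60 exceeded untagged reads in 48 of 68 genes, against 11011 of all 17689 genes. At Mcm7 there were 42 Tip60 reads and 15 untagged reads, a ratio of 3.04 (95% interval 1.65 to 5.90; exact test, adjusted p = 0.0123). At Ccnd3 there were 28 and 8, a ratio of 3.80 (1.69 to 9.64; exact adjusted p = 0.0312). The neighbour of Mcm7, Ap4m1, starts on the other strand within its window, and Ccnd3 has no other gene within 1000 bp. Summed over 68 genes the ratio was 1.40 (1.28 to 1.52), against 1.22 over all genes, while in the flanks of the members it was 0.973 (0.886 to 1.07). By role the pooled ratio was highest for the cell cycle kinases with 1.93 (1.37 to 2.74) and the cyclins with 1.78, and lowest for the anaphase promoting complex with 1.02 (0.714 to 1.46). The interval of the kinases overlaps those of the other roles named here.

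Hdac6 reads exceeded untagged reads at more of these promoters. Of 88 rows, 27 (30.7%) were called higher, against 22.3% of all 36733 rows and 26.3% of the rows with a RefSeq identifier, which include every member. None was called lower, against 0.378% of all rows. By 1 row per gene, 24 of 68 members (35.3%) were called higher, against 28.1% of all genes. Pooled over 68 genes, Hdac6 reads were 2.28 times the untagged reads (95% interval 2.09 to 2.49), against 2.00 times over all genes. In the flanks the ratio was 1.06 (0.948 to 1.18) for the members and 1.12 over all genes. Hdac6 reads covered 148 bp and untagged reads 299 bp, and the part of this difference was not tested.

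Among the roles the pooled ratio was highest for the transcription kinases, with 3.25 (2.502 to 4.23) and 6 of 7 genes called. Its interval overlaps those of the cyclins (2.81, 2.17 to 3.66), the cell cycle kinases, the Cdc25 phosphatases and the licensing and firing genes. It lies above those of the anaphase promoting complex (1.56, 1.07 to 2.26) and the other members (2.10, 1.79 to 2.45). A difference between roles was not tested. Cdk13 had the largest number of Hdac6 reads of any member, 32 upon GFP KD and 30 in the library titled Tip60 KD, against 4 untagged reads, a ratio of 15.98 (5.67 to 62.2; exact test, adjusted p = 8.36e-09). Its Tip60 reads were 7 upon GFP KD and 6 upon Hdac6 KD. Cdk9 had 30 Hdac6 reads against 16 untagged reads and Cdk8 24 against 12, and Cdk11b, Cdk12 and Cdk19 were called as well. Cdk7 was the exception, with 12 Hdac6 reads, 28 untagged reads and, at 38, the most Tip60 reads of the group. The 5 members with the highest promoter GC content, Cdk5r1, Cdk13, Ccne2, Ccne1 and Cdk9 (73.7 to 76.6%), were all called with more Hdac6 than untagged reads. The part of GC content in these reads was not tested.

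Of the 10 cyclin genes, 4 were called with more Hdac6 than untagged reads: Ccne1, Ccne2, Ccnd2 and Ccnd3. Ccne1 had 25 Hdac6 reads against 6 untagged reads (ratio 8.32, 3.33 to 24.8; exact test, adjusted p = 9.61e-06). Its Tip60 reads were 10 in the control and 3 upon Hdac6 KD, and the library titled Tip60 KD gave 13 Hdac6 reads. Ccne2 had 21 against 7, Ccnd2 19 against 12 and Ccnd3 18 against 8. The D cyclin Ccnd1, with 15 against 17 (ratio 1.76), was not called. Ccnb1 and Ccnb2 had 12 Hdac6 reads each, against 18 and 13 untagged reads. Ccna2 had 14 against 11 (ratio 2.54) and Ccna1 8 against 5 (ratio 3.196, above that of Ccnd2 at 3.16), and Ccnb3 had 1 against 6. None of these A and B cyclins was called. Whether the ratio differs between these cyclins was not tested. Of the licensing and firing genes, 6 of 16 were called: Mcm3, Mcm5, Mcm6, Mcm10, Cdc7 and Orc6l. At Mcm6 there were 21 Hdac6 reads and 4 untagged reads (ratio 10.5, 3.54 to 42.0; exact adjusted p = 2.19e-05). Cdc6 had 9 Hdac6 reads against 24 untagged reads, the most untagged reads of the licensing genes together with Orc5l.

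Outside these roles, Cdk6, Cdc25b and Cdc27 were called, and Cdc34, Cdc73, Cdk5r1, Cdk5rap1 and Cdk5rap3 among the other members. A second row of Cdc37 was called too. Cdk5r1, the neuronal activator of Cdk5, had 26 Hdac6 reads against 5 (ratio 10.4, 3.93 to 34.6; exact test, adjusted p = 2.03e-06).

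**Figure D5:**
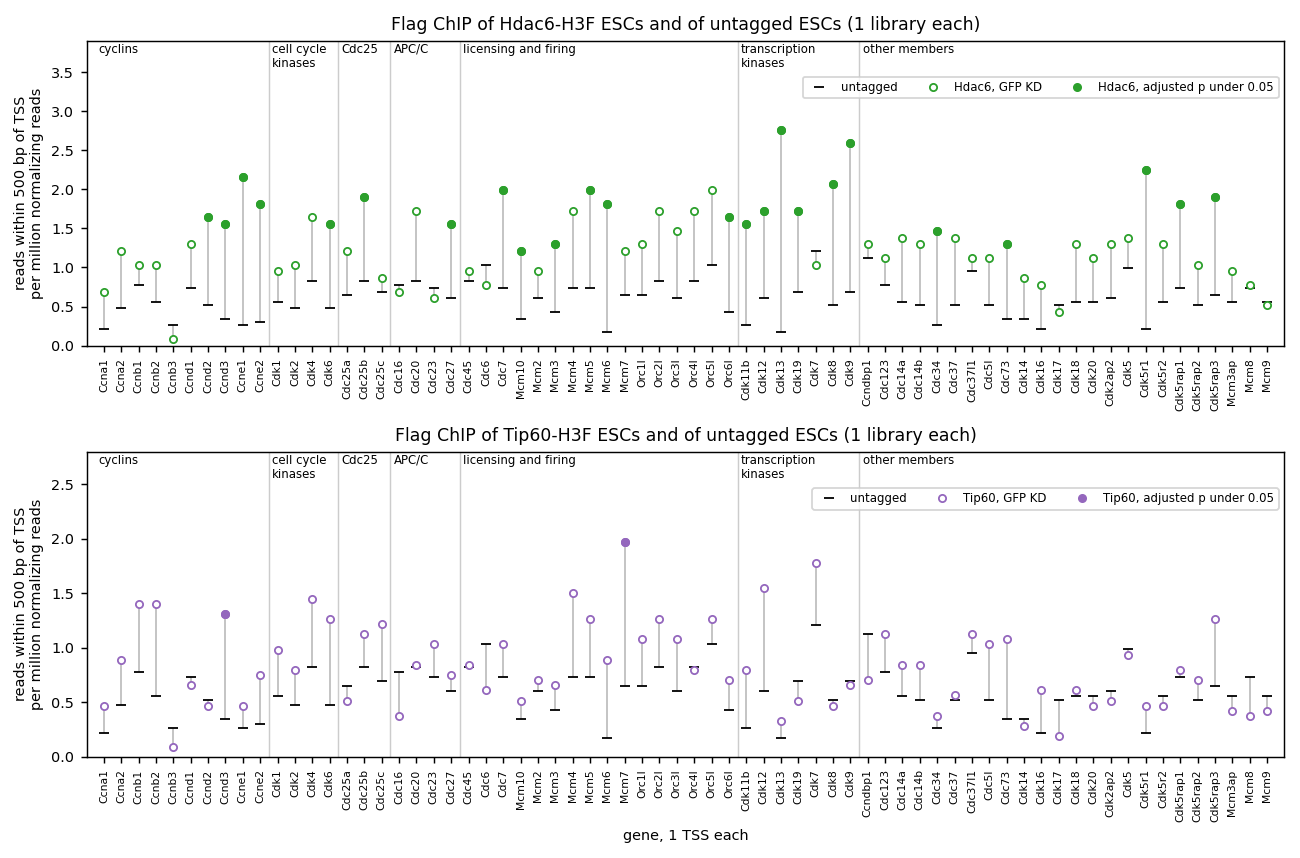
Flag ChIP reads within 500 bp of the TSS, scaled to the normalizing reads of the library (y axis, in ppm) for the 68 genes by role (x axis), showing Hdac6 (upper plot) and Tip60 (lower plot) upon GFP KD beside untagged ESCs (dashes), 1 library each. Filled circles have an adjusted p under 0.05: 24 genes for Hdac6 and 2, Ccnd3 and Mcm7, for Tip60.

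Hdac6 reads were also compared with the library titled Tip60 KD. No member row was called in either direction by the exact test, against 0.00272% of all rows higher and 0% lower, and 3 of 88 rows had an unadjusted p under 0.05, against 3.58% of all rows. Pooled over 68 genes, reads went from 1073 to 986 and the scaled change was 15.4% (95% interval 5.73 to 25.9%), with the higher value in the library titled Tip60 KD in 45 genes. Over all genes it was 3.48%, with the higher value in that library in 9254 of 17689 genes. In the flanks of the members it was −0.347% (−12.9 to 13.9%). By role the change ran from −3.87% (−25.6 to 23.9%) in the cyclins to 27.7% (−12.1 to 85.5%) in the cell cycle kinases, and all of these intervals overlap. The 3 genes under the unadjusted threshold were Cdc6 with 9 and 18 reads, Cdc73 with 15 and 25, and Cdk14 with 10 and 18.

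Other regulators of the same steps were read from a list of 49 genes with no member among them, of which 45 were found. In the p400 comparison 15 (33.3%) were called with fewer reads upon Hdac6 KD and 0 with more, against 14.7% and 0.249% of all genes. The pooled change was −52.6% (95% interval −56.5 to −48.4%), against −33.4% over all genes. The listed genes also started from more p400 reads, with a median of 32 upon GFP KD against 22 over all genes. The part of that starting number was not tested. The mitotic kinases Aurka, with 80 and 18 reads, Aurkb, with 44 and 14, and Plk1, with 41 and 16, were among the 15 called. So were Cdkn1b, for the inhibitor p27, with 33 and 13, and the partner of Cdc7, Dbf4, with 54 and 23. The inhibitor Cdkn1a had 32 and 22 p400 reads and was not called. Wee1, whose kinase restrains Cdk1, had 61 Tip60 reads in the control, 18 upon Hdac6 KD and 11 Flag reads in untagged ESCs, and it was the only gene of the list called in the Tip60 comparison (−67.1%; exact test, adjusted p = 0.00961). Pcna, Aurka and Wee1 (6.67%) were called with more Tip60 than untagged reads, against 1.74% of all genes. For Hdac6, 20 of the 45 genes (44.4%) were called with more than untagged reads, against 28.1% of all genes. By scaled value alone, 33 of these 45 genes had more Tip60 than untagged reads, against 11011 of all 17689 genes. For Hdac6 it was 34 of 45, against 13944 of 17689. Tfdp2 was called with fewer reads than the untagged control in both comparisons.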

How the data were processed

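The files hold coverage signal that the authors deposited around each TSS, every 20 bp from −2000 to 2000 bp, for 7 libraries. Per the paper and the labels, single-end reads (CASAVA 1.8.2) were mapped to mm9 with bowtie at no more than 1 mismatch, extended, cleared of simple repeats and normalized; the bowtie version is not given in the sources used here. A read with several best sites was kept at one of them at random, so reads of near-identical copies are uncertain. The methods state one short extension, but an isolated read covers 299 bp outside the Hdac6 libraries, and the measured span was used. Here, reads per row were summed signal divided by the value and span of 1 read, rounded. Rows of the p400 files were joined by RefSeq identifier and file order, which held in 724 of 724 testable pairs. Reads within 500 bp were compared by exact binomial tests given the normalizing totals, with 95% Clopper-Pearson intervals (Python 3.11.15, scipy 1.17.1), after tests on simulated data. A gene with several rows is shown by the RefSeq row of highest summed signal. Named genes are all members with a role, other members called in any comparison, and the 5 lowest and 5 highest p400 ratios over at least 10 reads. Members and lists were chosen with earlier results of these data known. Groups come from the labels. Alternatives were other windows, totals, filters and subtractions, 1 row per gene, a stricter threshold and a GC correction. No sample was left out.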

Additional observations from a re-analysis of the deposited data

How the results depend on the processing

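Under any alternative run, no member row was called with fewer Tip60 reads upon Hdac6 KD, while 15 to 644 of all rows were called in either direction. None was called with changed Hdac6 reads in the library titled Tip60 KD, against 0 to 4 of all rows. Of 88 member rows, 29 were called with fewer p400 reads upon Hdac6 KD. Within 240 bp of the TSS there were 8, and at an adjusted p under 0.01 there were 7. The other alternatives gave 23, of the 77 member rows without another gene within 1000 bp, to 39. Of all rows, 3049 were called for p400 in either direction. These became 941 within 240 bp, 1300 at the stricter threshold and 2333 to 4515 under the others. The 27 rows called with more Hdac6 than untagged reads became 14 within 240 bp, 16 with equal flank totals and 14 at the stricter threshold. Calls among all rows, in either direction, went from 8343 to 4888, 5459 and 4746 in the same order. The 2 rows called with more Tip60 than untagged reads became 0 within 240 bp and 0 at the stricter threshold. Those of all rows, in either direction, went from 537 to 136 and 258. Without rows that have another gene within 1000 bp, 1 of 77 member rows was called, and 397 of all rows. The narrow window holds fewer reads. The pooled p400 change was −38.4% within 1000 bp and −75.2% with flank signal subtracted. The pooled Tip60 change was −50.5% with flank signal and −67.1% with untagged signal subtracted, and turned to 1.44% with the GC correction. The pooled Hdac6 change was 27.6% with flank signal subtracted. No paired analysis was possible because each condition has 1 library. Depth limits single genes: medians of 8 to 31 reads per row leave all but large differences undetected.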
